A study of Mus musculus with 18 samples.

Results

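Fasn, Acaca, Scd1, Scd2, Fads1, Fads2, Elovl2, Elovl4, Elovl5 and Elovl6 are 10 genes of acyl-chain synthesis, desaturation and elongation. They were taken by symbol from the 32941 genes of each of 4 deposited RNA sequencing tables covering 18 mouse libraries, and all 10 were found in every table. RPKM (reads scaled to exon length and to the size of the library) is corrected for gene length, so levels of different genes can be set side by side within a library. The study concerns peroxisomal ether lipid synthesis in cortical neurogenesis, per its title. Ether lipids carry acyl chains, and the 10 genes make and modify such chains.

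Development was sampled in wild-type brain, with 1 library in the tables for each of embryonic days 11, 12, 13, 14, 16 and 18 (E11 to E18), whereas the design text speaks of cortex or primary stem cells in triplicate. Primary neural stem cells carried a scrambled control (NSC-Scramble, 2 libraries) or a PEX7 knockdown (NSC-Pex7sh, 2 libraries). Wild-type controls and PLAAT3-PEX11 overexpression, both labelled brain, were sequenced as Ctrl1 (2 libraries) and PLA1 (2 libraries), here the first set, and as Neuron-ctrl (2 libraries) and Neuron-PLA (2 libraries), here the neuron set. The labels do not say which PEX11 gene was overexpressed, what drove it, or whether the 2 libraries of a group came from separate animals or cultures, so the spread behind every p-value may be a technical one.

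Fatty acid synthesis starts when acetyl-CoA carboxylase, encoded by Acaca, makes malonyl-CoA, and fatty acid synthase, encoded by Fasn, assembles palmitate from it. Elovl6 lengthens palmitate to stearate, and the stearoyl-CoA desaturases Scd1 and Scd2 place a double bond to give palmitoleate and oleate, with Scd2 known as a main form in brain. Fads2 and Fads1 add double bonds to dietary linoleate and alpha-linolenate, Elovl5 and Elovl2 lengthen the polyunsaturated products on the way to arachidonate and docosahexaenoate, and Elovl4 makes very long chains. Fasn, Acaca, Scd1 and Elovl6 are known targets of the transcription factor SREBP-1c, encoded by Srebf1.

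The promoter windows are shown because several of these genes share known regulators, and because the letters known to bind them can be counted. RefSeq windows on GRCm38.p6, from 250 bases before to 50 after a start site, were matched by symbol for 7 of the 10 genes. The patterns searched on both strands were ATCACCC (the core of a sterol element of the kind SREBP binds), CCAAT (the site of NF-Y), GGGCGG (the GC box of Sp1) and CACGTG (an E-box). Matches are in capitals, and a match on the other strand appears as its complement, for example ATTGG for CCAAT.
Fasn, chr11:120824498-120824797, minus strand: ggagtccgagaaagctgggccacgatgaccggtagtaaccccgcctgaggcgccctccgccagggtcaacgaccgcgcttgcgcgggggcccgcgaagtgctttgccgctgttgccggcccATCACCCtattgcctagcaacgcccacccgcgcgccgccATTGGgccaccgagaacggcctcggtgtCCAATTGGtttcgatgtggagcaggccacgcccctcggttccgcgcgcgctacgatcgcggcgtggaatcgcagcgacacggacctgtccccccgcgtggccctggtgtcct
Elovl5, chr9:77917115-77917414, plus strand: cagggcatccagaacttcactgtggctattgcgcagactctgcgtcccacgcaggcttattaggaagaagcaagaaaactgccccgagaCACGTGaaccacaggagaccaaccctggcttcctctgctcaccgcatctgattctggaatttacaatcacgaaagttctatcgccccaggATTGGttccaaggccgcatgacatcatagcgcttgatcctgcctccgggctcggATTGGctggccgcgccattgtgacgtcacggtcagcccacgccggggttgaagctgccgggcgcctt
Elovl2, chr13:41220354-41220653, minus strand: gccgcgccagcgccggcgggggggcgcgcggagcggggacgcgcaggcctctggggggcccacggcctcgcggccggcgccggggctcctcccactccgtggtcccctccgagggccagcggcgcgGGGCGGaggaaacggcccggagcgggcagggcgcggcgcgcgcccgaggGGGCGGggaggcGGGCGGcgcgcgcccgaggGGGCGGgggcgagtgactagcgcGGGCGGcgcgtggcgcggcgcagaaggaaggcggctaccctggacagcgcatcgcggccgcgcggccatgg
The Fasn window held 1 ATCACCC and 3 CCAAT matches, of which a pair overlap as ATTGG and CCAAT on shared letters. The Elovl5 window held 2 CCAAT matches and 1 CACGTG. The Elovl2 window held 5 GGGCGG matches and none of the other patterns, and a second RefSeq window of Elovl2, overlapping it, held 0 matches of any. Of the windows not printed, Elovl4 had 1 CCAAT, 2 GGGCGG and 1 CACGTG, Fads2 had 1 GGGCGG, and Acaca and Elovl6 had 0 matches of any pattern. The Acaca window (chr11:84195188-84195487) lies inside the gene, whose annotated start is at 84129672. It therefore does not cover the promoter at that start. Among all 32851 windows of the same length, 37.4% held CCAAT, 35.7% GGGCGG, 7.15% CACGTG and 2.69% ATCACCC. These matches are descriptions of letters, not of binding.

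In mm10 coordinates of GENCODE M21, Scd1 (chr19:44394455-44407879, minus strand) and Scd2 (chr19:44293674-44306864, plus strand) are neighbours. Fads1 (chr19:10182888-10196877, plus strand) and Fads2 (chr19:10062765-10101746, minus strand) lie close together on the same chromosome. Fasn (chr11:120805846-120824547, minus strand) and Acaca (chr11:84129672-84401651, plus strand) share chromosome 11. Elovl4 (chr9:83778692-83806277, minus strand) and Elovl5 (chr9:77917364-77984519, plus strand) share chromosome 9. Elovl2 lies at chr13:41182381-41220405 on the minus strand and Elovl6 at chr3:129532355-129638495 on the plus strand. Values were summed over all annotated exons of a gene, untranslated ones included. The Scd genes are close paralogs, so the split of reads between Scd1 and Scd2 is uncertain. Acaca and Elovl6 overlap other annotated genes on the other strand, and the strand setting of the counting is not given in the sources used here. On the same strand, Acaca overlaps Gm37391, Elovl6 overlaps Gm43072, Scd2 overlaps Mir5114 and Fads1 overlaps Mir6993.

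The 6 stage libraries had 41501880 to 54373317 reads, as recovered from the values, and the other 12 had 16147911 to 28104927. Pex7 levels were 1.19 and 1.22 RPKM with the scramble and 0.5004 and 0.669 RPKM with the knockdown, which do not overlap. Plaat3 levels were 0.413 and 0.431 RPKM for Ctrl1 against 31.4 and 29.1 in PLA1, and 0.0699 and 0.230 in Neuron-ctrl against 19.0 and 20.8 in Neuron-PLA. Both overexpression sets, though labelled brain, were low in radial glia markers, with sums of 307 to 370 RPKM in the first set and 166 to 322 in the neuron set against 617 to 1057 across the stages. The radial glia gene Sox2 stood at 1.13 to 2.20 RPKM in the first set and 0.417 to 1.02 in the neuron set, against 25.4 to 138.7 across the stages. Microglia sums were 188 to 466 RPKM in the first set and 73.5 to 133 in the neuron set, against 18.7 to 45.6 across the stages.

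The neural stem cell libraries had the highest levels of most of the acyl-chain genes. Scd2 was the most abundant of the 10 in all 18 libraries. It stood at 798 and 604 RPKM in NSC-Scramble and 643 and 706 in NSC-Pex7sh, against 94.4 to 159.6 RPKM in the other 14 libraries. Scd1 stood at 96.4 and 63.9 RPKM in NSC-Scramble and 77.5 and 83.6 in NSC-Pex7sh, against 0.760 to 6.43 RPKM elsewhere. The lowest stem cell library was thus 9.94 times the highest other library for Scd1 and 3.79 times for Scd2. Elovl6 stood at 30.8 to 33.4 RPKM in stem cells and at 12.0 RPKM or less elsewhere, a factor of 2.56, and Fasn at 91.4 to 120.5 RPKM against 49.1 or less, a factor of 1.86. Smaller gaps separated Fads2 (1.34 times), Acaca (1.201 times), Fads1 (1.16 times) and Elovl5 (1.02 times). These 8 of 10 genes were higher in every stem cell library than in every other library, a pattern held by 15.2% of the 13123 genes compared. A gap of more than 1.5 times was found for 4 of 10, against 5.66% of genes, and of more than 2 times for 3 of 10, against 2.20%. The size thresholds of this count, and of those on stages and replicate pairs below, were chosen after the values were seen. Tables were normalised separately and the stem cells are cultured, so culture, cell type and table cannot be told apart, and these levels are a description with no test.

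Elovl2 and Elovl4 did not follow the other genes. Elovl2 stood at 17.3 to 18.8 RPKM in stem cells, below the 25.5 to 28.2 RPKM of the 4 neuron-set libraries, whereas the stages ran from 10.3 to 16.6 RPKM. Elovl4 was highest in the neuron set, at 39.4 to 47.7 RPKM. It was lower in the first set (20.5 to 23.7 RPKM), in stem cells (15.7 to 20.7 RPKM) at E11 to E16 (8.35 to 10.3 RPKM) and at E18 (15.6 RPKM). The neuron set had pan-neuronal marker sums of 2352 to 2451 RPKM, beside 2411 RPKM at E16 and 3504 at E18, and the part of cell make-up in the Elovl4 level was not tested. In bulk RNA, fewer cells of a type and less RNA per cell cannot be told apart.

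Summed over the 10 genes, RPKM ran from 312 to 404 across the stages, from 1107 to 1386 in stem cells and from 339 to 372 in the other 8 libraries. Scd2 made up 54.1% to 57.6% of that sum in stem cells and 25.4% to 41.9% elsewhere. Srebf1 was looked at after its values were seen. It stood at 31.97 to 45.1 RPKM in stem cells, 8.81 to 18.8 RPKM across the stages and 1.68 to 5.07 RPKM in the first and neuron sets. The 12 SREBP and LXR regulators summed to 318 to 353 RPKM in stem cells and to 152 to 253 elsewhere. The 18 cholesterol synthesis genes summed to 989 to 1028 RPKM in stem cells and to 353 to 811 elsewhere. The part of Srebf1 in the high stem cell levels was not tested. Oligodendrocyte-lineage markers were also highest in stem cells, with sums of 227 to 439 RPKM against 7.999 to 83.3 elsewhere. Within that list, the myelin gene Mbp, named like Olig1 after its values were seen, stood at 1.12 to 1.76 RPKM in stem cells, and Olig1 at 130 to 258. Whether these markers stand for a cell type, and what part it would have in the high Scd levels, was not tested.

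**Figure D1:**
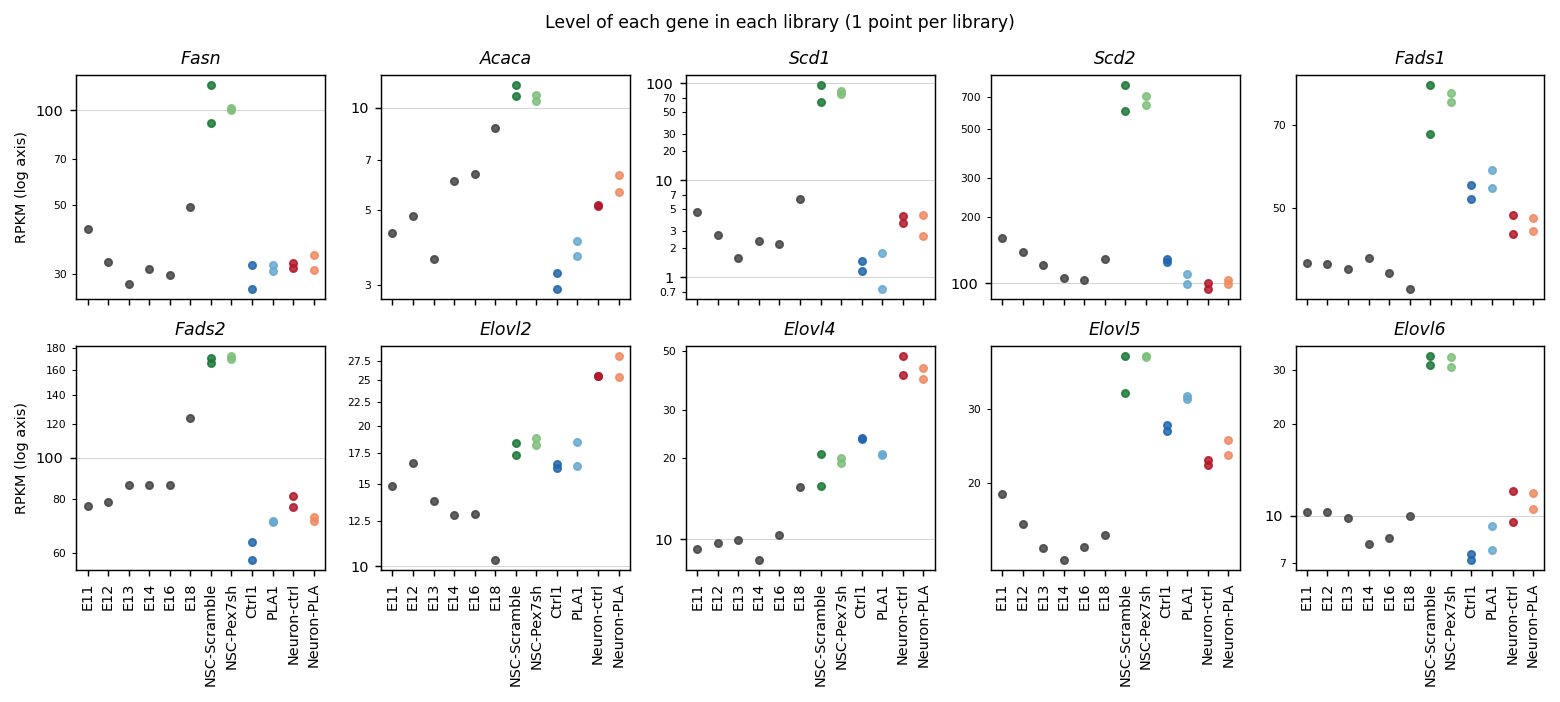
Level of each of the 10 genes in RPKM (log axis) in each of the 18 libraries, 1 point per library, by group. The 4 stem cell libraries sit above all others for 8 genes, with the widest gap for Scd1 (63.9 RPKM or more against 6.43 or less), whereas Elovl2 and Elovl4 peak in the neuron set.

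In the order of group means for Fasn, NSC-Scramble and NSC-Pex7sh came first and overlapped, at 106 ± 20.6 and 101 ± 0.904 RPKM (mean ± SD, n = 2), followed by E18 at 49.1 and E11 at 41.7 RPKM. Below these, E12, Neuron-PLA, Neuron-ctrl, PLA1 and E14 lay between 31.3 and 32.9 RPKM on average, and each overlapped the next in range. The lowest were Ctrl1 at 29.5 ± 3.54 (SD, n = 2) and E13 at 28.0 RPKM. For Acaca the stem cells were followed by E18 at 8.69, E16 at 6.36 and E14 at 6.08 RPKM, and Ctrl1 was last at 3.09 ± 0.227 RPKM (SD, n = 2).

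Across brain development, 7 of the 10 genes (Fasn, Acaca, Scd1, Scd2, Elovl4, Elovl5 and Elovl6) had their lowest level between E12 and E16, against 26.1% of all genes. Fads1, Fads2 and Elovl2 had it at E18 or E11. The test was the slope of log2(RPKM + 1) on embryonic day over the 6 libraries, so its error is the scatter around a line. By it 5828 of 12921 genes (45.1%) changed, 19.6% higher and 25.5% lower with age, and of the 10 genes 2 rose and 1 fell. With limma-voom on recovered reads the split between directions was 3019 higher and 2568 lower in place of 2528 and 3300.

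Acaca stood at 4.28, 4.78, 3.57, 6.08, 6.36 and 8.69 RPKM at E11, E12, E13, E14, E16 and E18. The 3 later stages were above the 3 earlier ones. Its slope was 0.13 log2 per day (SE 0.033, limma adjusted p = 0.0170). Fads2, the desaturase that opens polyunsaturated synthesis, stood at 77.3, 78.8, 86.3, 86.5, 86.5 and 124.0 RPKM, nearly flat from E13 to E16 and high at E18. Its slope was 0.08 log2 per day (SE 0.025, limma adjusted p = 0.0311). Elovl2, the elongase of the long polyunsaturated chains, stood at 14.8, 16.6, 13.8, 12.9, 13.0 and 10.3 RPKM and fell by 0.07 log2 per day (SE 0.023, limma adjusted p = 0.0325). Each of the 3 calls was lost without the E18 library (limma adjusted p = 0.179 for Acaca, 0.434 for Fads2 and 0.264 for Elovl2), and leaving out E12 or E13 left only Acaca. Fads2 was also lost without E14 (limma adjusted p = 0.0510). Elovl2 was lost with median-ratio scaling (limma adjusted p = 0.0718), upper-quartile scaling (0.0513) and limma-voom (0.0773).

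Scd1 stood at 4.71, 2.73, 1.57, 2.36, 2.18 and 6.43 RPKM over the same stages. It was high at both ends and lowest at E13, with E11 at 3.01 times and E18 at 4.11 times that level, and these values rest on 408 to 1710 reads. Its slope of 0.07 log2 per day (limma adjusted p = 0.533) describes a line that the values do not follow. Fasn stood at 41.7, 32.9, 28.0, 31.3, 29.9 and 49.1 RPKM and had the same course, with a slope of 0.04 (limma adjusted p = 0.542). Scd2 stood at 159.6, 138.6, 121.0, 105.8, 103.3 and 128.7 RPKM, lowest at E16, with a slope of -0.05 (limma adjusted p = 0.269). Elovl6, which lengthens the product of Fasn, ran from 8.09 RPKM at E14 to 10.3 at E11 (limma adjusted p = 0.579). A lowest value between E12 and E16 with both E11 and E18 at least 1.2 times it was found for Scd1, Fasn, Scd2 and Elovl6, 4 of the 10 genes, against 10.3% of all genes.

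Between E16 and E18, 6 of the 10 genes (Acaca, Elovl4, Fads2, Fasn, Scd1 and Scd2) were higher by 1.2 times or more, against 22.4% of all genes. For Elovl4, Fasn and Scd1 the step was 1.5 times or more, which 11.2% of genes had, and for Scd1 it was 2.95 times. Elovl4, the very long chain elongase, stood at 9.22, 9.63, 9.93, 8.35, 10.3 and 15.6 RPKM and did not pass (slope 0.09, limma adjusted p = 0.0640). It passed with median-ratio scaling (limma adjusted p = 0.0446), upper-quartile scaling (0.0489) and limma-voom (0.0321), and without E14 (0.0492). Fads1, the partner of Fads2, varied least, between 35.9 and 40.6 RPKM (slope -0.02, limma adjusted p = 0.433). Elovl5 ran from 13.2 RPKM at E14 to 18.9 at E11 (slope -0.03, limma adjusted p = 0.355). Elovl5, Elovl6 and Fads1 had a highest stage under 1.5 times the lowest, as did 25.8% of genes.

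Marker lists moved across the same stages. Oligodendrocyte-lineage sums were 30.2, 20.5, 15.9, 13.6, 25.02 and 83.3 RPKM from E11 to E18. Choroid plexus sums were 70.6, 6.42, 1.69, 2.33, 21.9 and 109 RPKM. Both sums were high at the ends as Scd1 and Fasn were. At E16 and at E18, however, 6 of the 7 choroid plexus genes were under 1 RPKM, so those sums came almost all from the remaining gene. Of 2 choroid plexus genes tested on the slope, 0 rose and 1 fell. Pan-neuronal sums went from 1066 RPKM at E11 to 3504 at E18, and 7 of 10 of these genes rose and 0 fell. Radial glia sums went from 1057 to 649 RPKM, with 8 of 10 genes lower and 1 higher. Erythroid sums went from 5915 to 253 RPKM and microglia sums from 19.9 to 45.6. The part of these cell types in the course of the acyl-chain genes was not tested.

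**Figure D2:**
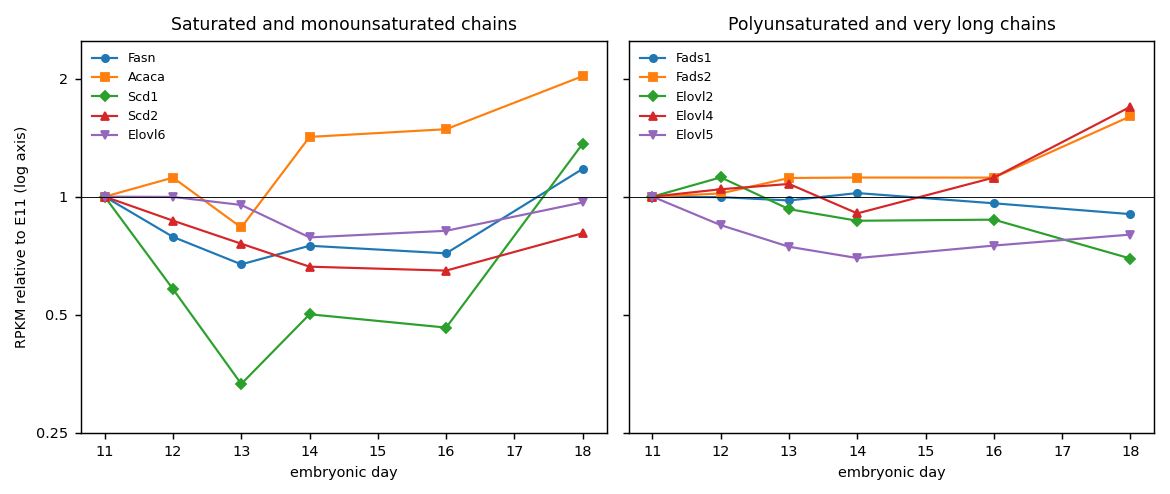
RPKM at each embryonic day relative to E11 (log axis), 1 library per stage, for genes of saturated and monounsaturated chains on the left and of polyunsaturated and very long chains on the right. Scd1 is lowest at E13 and highest at E18 (1.57 and 6.43 RPKM), Fads1 stays within 35.9 to 40.6 RPKM, and Elovl2 and Elovl4 part at E18.

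In the wider pathway, the counts of genes that changed with stage are read against 19.6% higher and 25.5% lower over all genes. Of 13 measured genes of acyl-CoA activation, binding and transport, 4 rose and 0 fell (median slope 0.07, against -0.02 over all genes). The fatty acid carrier Fabp3 had the steepest slope among them (0.50, limma adjusted p = 0.000657), with 5.82 RPKM at E11 and 103 at E18. The acyl-CoA thioesterase Acot7 (0.27), the fatty acid transport protein Slc27a4 (0.13) and the carrier Fabp5 (0.07) were the others. Of 9 genes that supply acetyl-CoA, malonyl-CoA and NADPH, 3 rose and 2 fell. Thrsp (0.27) and Me1 (0.18), which encodes malic enzyme, rose, and Acly (-0.11), which encodes ATP citrate lyase, and Pgd (-0.09) of the pentose phosphate pathway fell.

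Of 4 measured desaturases and elongases outside the 10, Fads3 (0.37) and Degs2 (0.06) rose and Elovl1 (-0.09) fell. Of 6 other enzymes of the elongation cycle, the reductase Tecr (0.15) and the dehydratase Hacd1 (0.14) rose and 0 fell. Of 10 regulators of the SREBP and LXR pathways, Scap (0.09) rose and Insig1 (-0.09) fell. Of 18 cholesterol synthesis genes, Fdft1 (0.10) rose and Idi1 (-0.14) fell, and of 4 genes of mitochondrial fatty acid synthesis 0 passed (limma). Cholesterol synthesis sums were 429, 370, 353, 364, 353 and 562 RPKM from E11 to E18. They too were high at the ends, as Scd1 and Fasn were.

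Knockdown of Pex7, which encodes the receptor that imports an ether lipid enzyme into peroxisomes, was compared with the scramble control in neural stem cells. None of the 10 genes passed, and by limma 0 of 12482 genes did (0%), with 184 at an unadjusted p under 0.05 and, by limma-voom, 0 called and 117 at that p. Estimates ran from -0.07 for Acaca (95% interval -0.28 to 0.13) to 0.14 for Elovl5 (-0.15 to 0.42), on the log2(RPKM + 1) scale. The 2 knockdown libraries overlapped the 2 scramble libraries for 10 of 10 genes, whereas 22.5% of all genes did not overlap. For Scd1 the estimate was 0.04 with an interval of -0.48 to 0.55, and for Scd2 it was -0.04 with an interval of -0.49 to 0.40.

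The 2 scramble libraries differed from each other in these genes. Scd1 stood at 96.4 and 63.9 RPKM in scramble libraries 1 and 2, a ratio of 1.51, and Fasn at 120.5 and 91.4 RPKM, a ratio of 1.32. Scd2 had a ratio of 1.32, Fads1 and Elovl5 of 1.22, and Elovl4 went the other way, with a ratio of 0.756. In all, 8 of 10 genes were higher in library 1, against 49.5% of all genes, and 6 of 10 were apart by 0.25 log2 or more, against 31.5%. In the knockdown pair 0 of 10 were that far apart, against 6.74% of genes. In the other pairs the counts were 0 in Ctrl1 (19.3% of genes), and 1 in each of PLA1 (Scd1, 30.0%), Neuron-ctrl (Elovl6, 29.5%) and Neuron-PLA (Scd1, 32.2%).

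Marker genes differed between the scramble libraries as well. All 10 radial glia genes were higher in library 1 (median difference 0.49 log2), 0 of 10 pan-neuronal genes were (median -0.44), and the oligodendrocyte-lineage sums were 439 and 227 RPKM. Choroid plexus sums were 30.9 and 194 RPKM, and Srebf1 stood at 45.1 and 31.97 RPKM. The part of these in the acyl-chain genes was not tested. Without scramble library 1, the Fasn difference of knockdown against control was 0.14 and that of Scd2 0.16, and without scramble library 2 that of Scd1 was -0.26. No gene passed in any of these fits (limma).

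**Figure D3:**
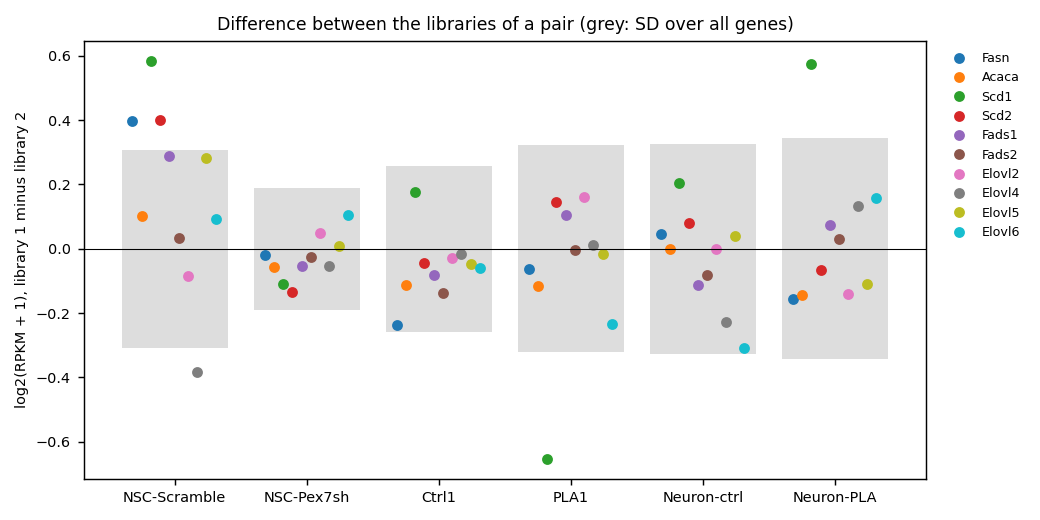
Difference between the 2 libraries of each group, as log2(RPKM + 1) of library 1 minus library 2, 1 point per gene, with a grey band of 1 SD over all genes on either side of 0. In the scramble pair Scd1, Scd2 and Fasn lie above the band and Elovl4 below it, and in the knockdown pair all 10 genes lie within it.

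The first set compared PLAAT3-PEX11 overexpression with its control. PLAAT3 is a phospholipase and acyltransferase, and PEX11 proteins act in peroxisome division. Scd2 fell, from 124 and 128 RPKM in Ctrl1 to 110 and 99.3 in PLA1. The log2 change was -0.27 (SE 0.077, 95% interval -0.45 to -0.088, limma adjusted p = 0.0377). It was the only one of the 10 genes to pass, in a comparison in which 3438 of 11623 genes (29.6%) passed, 16.3% higher and 13.2% lower. The split between directions turned with scaling, from 1900 higher and 1538 lower to 1556 and 1790 with median-ratio and 1651 and 1710 with upper-quartile scaling. The Scd2 call was lost with no filter on low values (limma adjusted p = 0.123), without Ctrl1 library 1 (0.120) or 2 (0.158), and without PLA1 library 2 (0.130).

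Fads2 and Elovl5, which desaturate and lengthen polyunsaturated chains, had positive estimates that did not pass. With a replicate block, which no label calls for, Fads2 passed (limma). Fads2 measured 57.8 and 63.7 RPKM in Ctrl1 and 70.9 and 71.1 in PLA1, with no overlap (log2 change 0.22, 95% interval 0.036 to 0.41, limma adjusted p = 0.0732). Elovl5 stood at 26.6 and 27.5 against 31.7 and 32.1 RPKM, with no overlap (0.23, limma adjusted p = 0.0734). Elovl4 stood at 23.4 and 23.7 against 20.7 and 20.5 RPKM, lower with no overlap (-0.19, limma adjusted p = 0.141). Elovl2 at 16.2 and 16.6 against 18.5 and 16.4 RPKM (0.08) and Fads1 at 51.7 and 54.8 against 58.2 and 54.0 RPKM (0.07) overlapped.

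The synthesis genes had small estimates. Fasn measured 27.0 and 32.04 RPKM in Ctrl1 and 30.8 and 32.3 in PLA1, which overlap (0.10, limma adjusted p = 0.511). Acaca stood at 2.93 and 3.25 against 3.66 and 4.04 RPKM (0.25, limma adjusted p = 0.239) and Elovl6 at 7.15 and 7.49 against 7.72 and 9.25 RPKM (0.19, limma adjusted p = 0.306), both without overlap. Scd1 stood at 1.45 and 1.17 RPKM against 0.760 and 1.77 (-0.06), with 60 to 155 reads per library. The 2 PLA1 libraries lie apart beyond counting error (Poisson 95% intervals of 0.580 to 0.978 and 1.499 to 2.07 RPKM). In all, 6 of 10 genes did not overlap between groups, against 69.3% of all genes. Of these 4 were higher, against 39.6% of genes, and 2 lower, against 29.7%.

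**Figure D4:**
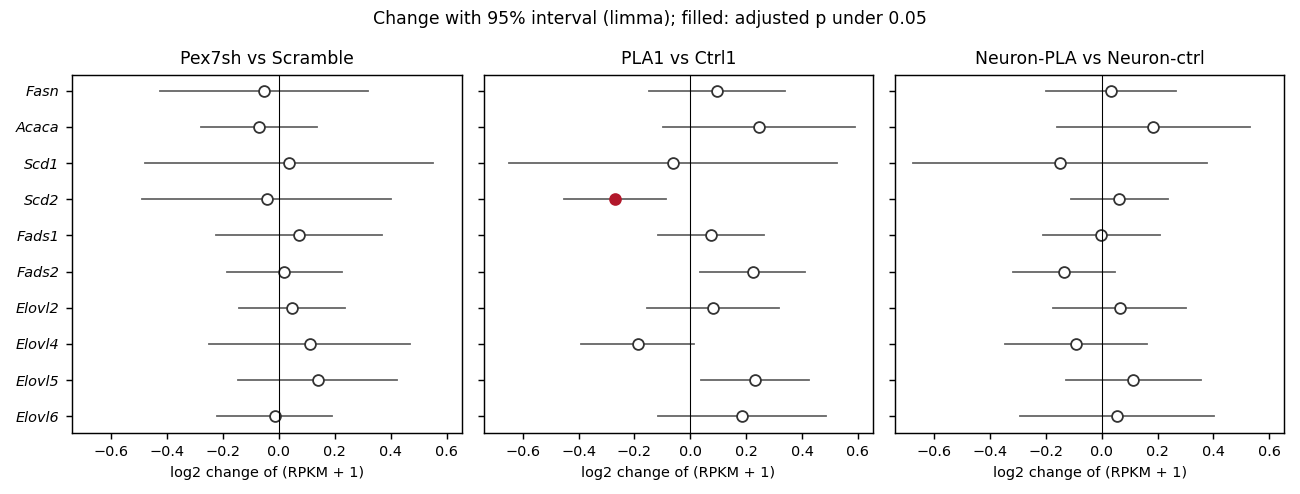
Log2 change of (RPKM + 1) with its 95% interval from limma for each gene in the 3 treatment comparisons, filled where the adjusted p was under 0.05. Scd2 in the first overexpression set (-0.27) is the 1 filled point, and the intervals of Scd1 are the widest in each comparison.

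In the wider pathway of the first set, 4 of 9 measured genes of precursor and NADPH supply fell and 1 rose (median -0.32, against 0.06 over all genes). This count and those of the lists and markers that follow are read against 13.2% lower and 16.3% higher over all genes. Idh1, which makes cytosolic NADPH, measured 60.3 and 63.6 RPKM in Ctrl1 and 32.5 and 30.4 in PLA1 (log2 change -0.95, limma adjusted p = 0.000497). G6pdx (-0.62), the entry enzyme of the pentose phosphate pathway, and the citrate carrier Slc25a1 (-0.47) fell, Mid1ip1 (0.40), an activator of acetyl-CoA carboxylase, rose.

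Of 13 genes of acyl-CoA activation, binding and transport, 4 fell and 2 rose (median 0.06). Fabp3 stood at 9.09 and 8.66 RPKM against 3.31 and 2.64 (-1.32, limma adjusted p = 0.00111). Fabp5 (-0.82) and the acyl-CoA binding protein Dbi (-0.62) also fell, and Acsbg1 (0.72), an acyl-CoA synthetase, rose. Among 11 SREBP and LXR regulators Insig1 (-0.73), which retains SREBP in the endoplasmic reticulum, fell and Srebf2 (0.53) rose. Of 18 cholesterol synthesis genes Fdft1 (-0.66) and Mvd (-0.56) fell and 0 rose. Of 4 genes of mitochondrial fatty acid synthesis Mecr (0.30) rose. Among other desaturases and elongases 0 of 2 passed, and among other elongation enzymes 0 of 4 (limma).

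Cell type markers changed in the same comparison. Pan-neuronal sums were 1002 and 987 RPKM in Ctrl1 and 515 and 503 in PLA1, with 7 of 10 genes lower and 0 higher. Microglia sums were 466 and 432 RPKM against 188 and 203, with 8 of 9 genes lower. Radial glia sums were 321 and 307 RPKM against 370 in both, with 6 of 10 higher and 1 lower. Endothelial and choroid plexus markers had 0 genes at a mean of 1 RPKM or more. The part of these in the Scd2 difference and in the lists above was not tested.

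In the neuron set none of the 10 genes passed. Here 98 of 11179 genes (0.877%) passed, 42 higher (0.376%) and 56 lower (0.501%), or 321 genes, 171 higher and 150 lower, with limma-voom. Fads2 stood at 76.9 and 81.5 RPKM in Neuron-ctrl and 72.7 and 71.2 in Neuron-PLA, lower with no overlap (log2 change -0.14, 95% interval -0.32 to 0.046, limma adjusted p = 0.415). Acaca stood at 5.14 and 5.15 against 5.65 and 6.34 RPKM (0.18, limma adjusted p = 0.560) and Elovl5 at 22.7 and 22.0 against 23.3 and 25.3 RPKM (0.11, limma adjusted p = 0.613), both higher with no overlap. These 3 of 10 compare with 50.0% of all genes, 24.7% higher and 25.3% lower.

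Scd2 stood at 99.8 and 94.4 RPKM in Neuron-ctrl and 99.2 and 104 in Neuron-PLA, which overlap (0.06, 95% interval -0.11 to 0.24). Fasn at 32.6 and 31.5 against 31.1 and 34.7 RPKM, Elovl2 at 25.6 in both controls against 25.5 and 28.2, and Elovl4 at 40.6 and 47.7 against 43.3 and 39.4 overlapped too. Scd1 (4.28 and 3.58 against 4.41 and 2.63 RPKM), Elovl6 (9.52 and 12.0 against 11.8 and 10.5 RPKM) and Fads1 (44.9 and 48.6 against 47.9 and 45.4 RPKM) completed the list. Of all genes of the 7 pathway lists, 1 passed, the brain fatty acid carrier Fabp7. It went from 188 and 208 RPKM to 89.2 and 123 (-0.91, limma adjusted p = 0.0400). Fabp7 is also on the radial glia list, whose sums were 315 and 322 RPKM in Neuron-ctrl and 166 and 206 in Neuron-PLA. Microglia sums were 130 and 133 RPKM against 82.7 and 73.5, and pan-neuronal sums were 2388 and 2451 against 2352 and 2418. Endothelial sums were 21.4 and 21.2 RPKM against 2.04 and 2.15. Of the 8 endothelial genes, 6 in Neuron-ctrl and 7 in Neuron-PLA were under 1 RPKM. Erythroid sums were 82.3 and 89.04 against 30.8 and 40.8, and astrocyte sums 39.4 and 41.6 against 27.1 and 24.8. Only 1 endothelial gene was tested, Cldn5, named after its values were seen, and it fell (-2.94, limma adjusted p = 0.000666). The part of these in the Fabp7 difference was not tested.

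The difference between the 2 overexpression effects was tested as an interaction of set and treatment, and 0 of the 10 genes passed, against 11.7% of 11705 genes, 5.48% with a higher and 6.19% with a lower effect in the neuron set. That split turned from 642 and 725 genes to 780 and 602 with median-ratio scaling and 818 and 659 with limma-voom. Fads2 had an effect lower by 0.36 in the neuron set than in the first set (95% interval -0.60 to -0.12, limma adjusted p = 0.0619). Scd2 had an effect higher by 0.33 (0.095 to 0.57, limma adjusted p = 0.0741). Fads2 passed with a filter at 5 RPKM (limma adjusted p = 0.0471). Scd2 passed with median-ratio scaling (limma adjusted p = 0.0485), with limma-voom (0.0207) and without PLA1 library 1 (0.04997). For the other 8 genes the adjusted p ran from 0.588 for Elovl5 to 0.953 for Elovl2.

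Ratios of partner genes within a library do not depend on library scaling. Scd2 over Scd1 was 8.28 to 9.45 in stem cells, 22.5 to 39.4 in the neuron set, 85.7 and 110 in Ctrl1 and 145 and 56.2 in PLA1. Across the stages it was 33.9, 50.7, 77.3, 44.9, 47.4 and 20.03, highest at E13 where Scd1 was lowest. Fads2 over Fads1 was 1.94 to 2.26 from E11 to E16 and 3.45 at E18. It was 1.12 and 1.16 in Ctrl1 against 1.22 and 1.32 in PLA1, and 1.71 and 1.68 in Neuron-ctrl against 1.52 and 1.57 in Neuron-PLA, so the groups did not overlap in either set and differed in opposite directions.

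Fasn over Acaca and Elovl5 over Elovl2 were also apart between the groups of both sets, each in 1 direction. Among single genes, 69.3% did not overlap in the first set and 50.0% in the neuron set, and no such share was computed for ratios. Fasn over Acaca was 9.24 and 9.86 in Ctrl1 against 8.43 and 7.98 in PLA1, and 6.33 and 6.12 in Neuron-ctrl against 5.495 and 5.47 in Neuron-PLA (differences of log2 ratio -0.22 and -0.18). Elovl5 over Elovl2 was 1.64 and 1.66 in Ctrl1 against 1.72 and 1.95 in PLA1, and 0.888 and 0.862 in Neuron-ctrl against 0.916 and 0.897 in Neuron-PLA (0.15 and 0.051).

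Elovl4 over Elovl2 was 0.580 to 0.796 from E11 to E16 and 1.52 at E18. It was 0.907 to 1.13 in stem cells, 1.44 and 1.43 in Ctrl1, 1.12 and 1.25 in PLA1, 1.59 and 1.86 in Neuron-ctrl and 1.70 and 1.40 in Neuron-PLA. Of 15 tests over 5 ratios and 3 treatments, none passed, since 2 libraries against 2 cannot go below p = 0.333 in a two-sided exact permutation test (0.714 after Benjamini-Hochberg adjustment). For Fads2 over Fads1 the differences of log2 ratio were 0.15 in the first set and -0.14 in the neuron set.

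**Figure D5:**
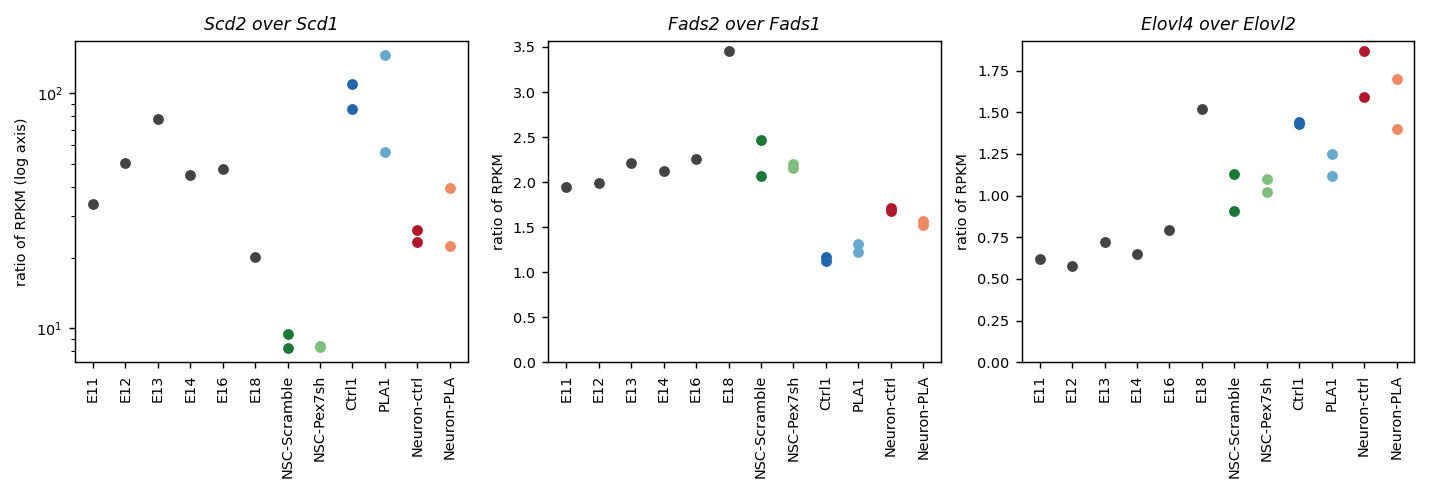
Ratios of RPKM within each library (Scd2 over Scd1 on a log axis, Fads2 over Fads1 and Elovl4 over Elovl2 on linear axes from 0), 1 point per library, by group. Scd2 over Scd1 is lowest in stem cells (8.28 to 9.45), and Fads2 over Fads1 is highest at E18 (3.45). Elovl4 over Elovl2 is highest among the stages at E18 (1.52) and reaches 1.86 in Neuron-ctrl.

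Genes whose pattern was most like each of the 10 were ranked by Pearson r of log2(RPKM + 1), centred on the mean of each table, over the 18 libraries, against 4936 other genes (4937 for Acaca and Scd1). The libraries share tables, depth and the differences in cell make-up above, so r describes these libraries only. Scd1 was nearest to Lpcat1 (r = 0.91), Fkbp1a (0.84) and Fasn (0.80), and Fasn to Lpcat1 (0.81), Msmo1 (0.81) and Rpn1 (0.79). Fasn with Scd1 was also the closest pair among the 10 genes. Scd2 was nearest to Ldha (0.85), Pfkl (0.84) and Cetn2 (0.82), and Acaca to Emc1 (0.89), Nucb1 (0.86) and Nol6 (0.85). Fads2 was nearest to Cc2d1a (0.90), Aplp2 (0.88) and Rnf208 (0.88), and Fads1 to Xrcc6 (0.80), Bms1 (0.77) and Itgb1 (0.76). Elovl2 was nearest to Rnf2, Hif1a and Cpsf6 (0.95 each), and Elovl4 to Atp6ap2 (0.94), Hagh (0.92) and Atp6v1b2 (0.91). Elovl5 was nearest to Dhx29 (0.85), Usp14 (0.83) and Prep (0.83), and Elovl6 to Rexo4 (0.85), Metap1 (0.83) and Creld2 (0.77). The most opposed pair of the 10 was Fads2 and Elovl2, at r = -0.72.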

How the data were processed

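RNA sequencing values of 18 mouse libraries (Trizol extraction, 2 ug of total RNA, per the labels' protocols) were analysed. The submitters' processing notes name STAR 2.7.9a, HTSeq 0.6.0 and the build mm10, and the authors' use of them goes into the deposited values. The authors deposited 4 tables whose unit no header names. Read as RPKM, the deposited values times GENCODE M21 exon length and a read total per library came out as whole reads (tolerance 0.01) in 97.52% to 97.8% of nonzero cases. Of 32941 genes, 31976 (97.07%) had a length. Columns of all 18 libraries were used, and 0 sample columns were left out.

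The written design held a count test and a test for normalised values, and the latter was used because the tables hold RPKM. It was limma 3.58.1 (R 4.3.3, trend option) on log2(RPKM + 1). Genes averaging 1 RPKM or more entered, p-values were adjusted by Benjamini-Hochberg over all of them, and 0.05 was the threshold. A fold change on this scale understates the change of low genes. All 10 genes passed the filter in all 5 fits: 3 treated against control, the slope on embryonic day, and the interaction of set and treatment. Each fit was also run on simulated reads, with known changes in a small share of genes and the same dispersion for every gene. These settings differ from the data, so the run checks the code and not the error rates here. Alternatives were a pseudocount of 0.1, no filter, a filter at 5 RPKM, median-ratio and upper-quartile scaling, limma-voom on recovered reads, each library or stage left out, and a replicate block. Poisson intervals (95%) of reads cover counting error only.

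The 10 genes, 7 pathway lists and 9 marker lists were chosen with earlier results of these data known. Named were all 10 genes, the targeted genes, up to 4 called genes of smallest adjusted p per pathway list, and for each of the 10 the 3 genes of highest correlation among those with a mean of at least 5 RPKM in every table. Srebf1 and the marker genes given by name were picked after their values were seen. Ratios were compared with exact permutation tests (SciPy 1.17.1). Promoter sequences are from RefSeq on GRCm38.p6. Scd1, Scd2 and Fads1 were not matched to a window. Some of the targeted and marker genes are not reported here.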

Additional observations from a re-analysis of the deposited data

Results flagged for a closer look

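The interaction of set and treatment, which tests whether the overexpression effect differs between the first set and the neuron set, was passed by 11 of 63 tested genes of the 7 pathway lists (17.5%), against 11.7% of all genes. Differences are log2 effects, neuron set minus first set, with limma adjusted p. None of the 10 acyl-chain genes is among them.

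In precursor supply, Idh1 (0.81, adjusted p = 0.00167) and Slc25a1 (0.56, adjusted p = 0.0117) had higher effects in the neuron set, and Mid1ip1 (-0.80, adjusted p = 0.00552) a lower one. In acyl-CoA handling, Fabp3 (1.10, adjusted p = 0.00247) and Acot7 (0.39, adjusted p = 0.0376) were higher, and Acsbg1 (-1.35, adjusted p = 0.00313) and the lysophospholipid transporter Mfsd2a (-0.77, adjusted p = 0.0215) lower. The sterol genes Insig1 (1.03, adjusted p = 0.00381), Mvd (0.66, adjusted p = 0.00826), Hmgcs1 (0.51, adjusted p = 0.0127) and Fdft1 (0.52, adjusted p = 0.0218) were all higher. Pan-neuronal markers moved with these, with 7 of 10 higher and 0 lower in the same interaction. Radial glia markers did too, with 0 higher and 5 lower of 10. In the neuron set alone only 7 of these 10 averaged 1 RPKM or more. Notch1, among the 5 lower genes, did not, and entered through the first set, where it rose (0.96). The endothelial gene Cldn5 (-2.92, adjusted p = 0.000247) had a lower effect in the neuron set. So had the astrocyte genes Gja1 (-1.13, adjusted p = 0.0116) and Aldh1l1 (-0.90, adjusted p = 0.0143). These genes were named after their values were seen. All 8 endothelial genes were under 1 RPKM in Ctrl1 and PLA1, so Cldn5 entered this fit only through the neuron set. Its value therefore does not compare 2 measured effects. Gja1 averaged under 1 RPKM in the neuron set and entered through the first set, where it rose (0.58). The part of these markers was not tested. Groups held 1 or 2 libraries, so a library far from its group could not be tested.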

How the results depend on the processing

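All values here are log2 changes or counts of genes by limma unless another tool is named. Genes called in the first set were 3438, with 1177 without a filter and 1575 to 3294 with 1 library left out. In the neuron set 98 genes were called, with 0 without a filter (2280 at an unadjusted p under 0.05), 216 with a filter at 5 RPKM, 321 with limma-voom and 7 to 163 with 1 library left out. For the stage slope 5828 were called, with 3840 at 5 RPKM and 2537 to 5485 with 1 stage left out. For the interaction 1367 were called, with 761 without a filter and 636 to 1218 with 1 library left out.

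Of the 10 acyl-chain genes, 1 was called in the first set, 0 without a filter and 0 to 1 with 1 library left out. For the slope 3 were called, 0 to 3 with 1 stage left out. For the interaction 0 were called, 1 with a filter at 5 RPKM, 1 with median-ratio scaling, 1 with limma-voom and 0 to 1 with 1 library left out. For the knockdown and the neuron set the number stayed at 0 under these alternatives.

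Estimates near 0 changed sign. Median-ratio scaling gave 0.002107 for Fads1 in the neuron set, 0.000078 for the Fads1 slope, and 0.001397 for Fasn and 0.045289 for Elovl2 in the interaction. Upper-quartile scaling gave 0.017521 for Elovl2 in the interaction. Limma-voom gave 0.041254 there, and slopes of 0.003341 for Fads1 and 0.002835 for Elovl6. With 1 library left out, signs changed as follows, with the lowest and highest value of all such fits given for each gene. In the knockdown, values ran for Fasn from -0.25 to 0.14, Scd2 from -0.24 to 0.16, Elovl4 from -0.081 to 0.30, Elovl6 from -0.069 to 0.037, Scd1 from -0.26 to 0.33, Fads1 from -0.072 to 0.22 and Elovl5 from -0.0017 to 0.28. In the first set, values ran for Fasn from -0.023 to 0.21 and Scd1 from -0.39 to 0.26. In the neuron set, values ran for Elovl6 from -0.10 to 0.21, Fads1 from -0.057 to 0.054, Elovl4 from -0.21 to 0.021, Fasn from -0.044 to 0.11, Scd1 from -0.44 to 0.14 and Elovl2 from -0.0063 to 0.13. For the slope, values ran for Fasn from -0.076 to 0.092 and Scd1 from -0.14 to 0.17. In the interaction, values ran for Fasn from -0.18 to 0.057, Scd1 from -0.41 to 0.24, Elovl2 from -0.096 to 0.063, Elovl4 from -0.017 to 0.21, Elovl6 from -0.29 to 0.023 and Acaca from -0.13 to 0.0096. None of these estimates passed under any setting named with them. The cause was not tested. A lone library left in a group was assumed to vary like the others.

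The labels give no shared animal or batch for same-numbered libraries. Deviations of such libraries correlated at 0.0101 (knockdown), 0.0991 (first set) and 0.0468 (neuron set). With so few libraries these values can neither show nor exclude pairing. With the replicate block, 1 gene was called for the knockdown, 4297 in the first set, 54 in the neuron set and 1438 in the interaction. Of the acyl-chain genes 2 were called in the first set with the block, Fads2 (adjusted p = 0.0437) and Scd2. The lowest depth behind a value was 60 reads, for Scd1, whose intervals were wide at that depth and at 5743 to 8116 reads in stem cells.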
